A study of Mus musculus with 18 samples.

Results

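A set of 10 genes that set or read the activity of E proteins during early lymphoid and dendritic cell (DC) development was followed in the RNA-seq of bone marrow progenitors from WT mice and mice with *Trim33* deletion. They were taken by symbol from the deposited tables of each progenitor population: the E proteins *Tcf3* (E2A), *Tcf4* (E2-2) and *Tcf12* (HEB), the ID proteins *Id1*, *Id2* and *Id3*, and the DC regulators *Zeb2*, *Bcl11a*, *Batf3* and *Nfil3*. All 10 were found in each table, among 19710 listed genes for multipotent progenitors (MPPs), 19710 for CD115- common DC progenitors (CD115- CDPs) and 18378 for common lymphoid progenitors (CLPs). MPPs were sorted as lineage-negative cells with Sca-1, CD117, CD34 and FLT3, CLPs as lineage-negative cells with Sca-1, CD117, FLT3 and the IL-7 receptor CD127, and CD115- CDPs as FLT3+ cells with intermediate CD117 that lacked CD115 and CD127.

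The mice were C57BL/6 animals of 6 to 8 weeks that carried the floxed allele, *Trim33* fl/fl without Cre (WT) or *Trim33* fl/fl Cre-ERT2 (KO), and bone marrow was taken 7 days after the last of 5 daily injections of 2 mg tamoxifen. Cre-ERT2 acts in every cell that carries it once tamoxifen is given, and the WT mice had no Cre, so that an effect of Cre itself and the loss of *Trim33* cannot be told apart. The study's supplement describes both genotypes of its progenitor RNA-seq as treated with tamoxifen; how many mice made up a library is not given in the sources used here. Each population had 3 WT and 3 KO-labelled libraries, 18 in all, numbered 1 to 3 in each group. The study's methods call its replicates biological outside 1 other assay, and the labels do not say whether each library came from separate mice.

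E proteins are basic helix-loop-helix activators that bind DNA as dimers at E-boxes. ID proteins have the dimerization domain but no DNA-binding part, so they hold E proteins away from DNA. High E2-2 activity is known to maintain plasmacytoid DCs (pDCs), whereas ID2 accompanies the conventional DC (cDC) fate, and E2A drives the first steps of the B lineage. In cDC1 development NFIL3, ID2, ZEB2 and BATF3 form a known circuit in which ZEB2 restrains *Id2*, and BCL11A is needed for pDC and lymphoid development and is known to act on *Tcf4*.

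The E-box that E proteins prefer is an instance of CANNTG. *Id2* and *Nfil3* had levels that rose and fell together over the libraries. The RefSeq starts used here (GRCm38.p6) were base 25096092 of chromosome 12 for *Id2* and base 52981039 of chromosome 13 for *Nfil3*, both on the minus strand. Of the 250 bases before each start, only the part 5′ of any GENCODE exon in that window was searched, 89 bases for *Id2*. Each searched part had 1 CANNTG, and in both genes it was CAGCTG, shown in capitals below. Matches nearer the *Id2* start were not counted. The *Id2* stretch (chr12:25096254-25096342, minus strand) lies 5′ of the RefSeq start in an intron of the longest GENCODE transcript, and the *Nfil3* stretch (chr13:52981245-52981274, minus strand) lies 5′ of every GENCODE exon of the gene.
Id2: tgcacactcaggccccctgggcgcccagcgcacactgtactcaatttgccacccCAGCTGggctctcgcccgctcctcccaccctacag
Nfil3: gacagcgggtagCAGCTGcggccgcggcca
The motif began 196 bases before that *Id2* start and 223 bases before that *Nfil3* start. CANNTG, a palindrome that reads alike on both strands, was held by 66.2% of the 32851 promoter windows of 250 bases, and CAGCTG by 4271 of them (13%), so that these matches are a description of the letters only. The *Id3* window and the 4 *Zeb2* windows held no CANNTG. The match did not set *Id2* and *Nfil3* apart, as the windows of *Batf3*, *Bcl11a* and *Tcf3* also held CANNTG. So did 2 of the 3 *Tcf12* windows, and 1 *Tcf12* window held CAGCTG. On the same build the genes themselves run from 25093799 to 25096092 of chromosome 12 (*Id2*), 52967209 to 52982878 of chromosome 13 (*Nfil3*), 136143822 to 136145392 of chromosome 4 (*Id3*), 44983512 to 45117442 of chromosome 2 (*Zeb2*) and 24076564 to 24173558 of chromosome 11 (*Bcl11a*) in the RefSeq annotation. The *Nfil3* start used is not the end of that span, so the *Nfil3* stretch lies inside the span of its gene, whereas the *Id2* stretch lies outside that of *Id2*.

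The libraries held an estimated 19.2 to 21.4 M mapped reads, and their values are FPKM, which are scaled to transcript length and can be set side by side between genes. Genes averaging at least 0.5 FPKM in a population were tested with limma on log2(FPKM + 1) and a call needed both an adjusted p (Benjamini-Hochberg) no higher than 0.05 and a log2 fold change of 1 or more in either direction; this scale understates the change of low genes such as *Batf3*. *Trim33* in the MPP libraries labelled KO 1 and KO 2 was 9.71 and 11.7 FPKM against 8.78 to 10.4 in WT, and KO 3 had 4.80. The transcript level thus separates only the library labelled KO 3 from WT MPPs. *Trim33* was lower in the KO-labelled library of every number in CD115- CDPs (4.03 to 9.64 against 8.27 to 15.2) and CLPs (5.60 to 7.66 against 7.01 to 12.4). A gene-level value includes exons that the deletion leaves in place, so it checks the label only weakly. The study reports efficient deletion by qPCR in lineage-negative marrow cells of tamoxifen-treated mice. The library labelled MPP KO 3 also stood apart from KO 1 and KO 2 for *Tcf3*, *Id2*, *Bcl11a* and *Nfil3*. For *Id3* it was the lowest, but KO 1 lay furthest from the others (33.8, 16.5 and 9.74 FPKM in KO 1, KO 2 and KO 3). In CD115- CDPs both libraries numbered 3 stood apart, with 9 summed neutrophil markers at 4510 (WT) and 4443 (KO-labelled) FPKM against 694.6 to 1063 in the other 4. The defining genes of the sorts were present in each population, with *Flt3* at a mean of 267, 206 and 292 FPKM and *Il7r* at 5.55, 13.3 and 43.2 FPKM in WT MPPs, CD115- CDPs and CLPs, although *Csf1r*, which encodes CD115, averaged 77.6 FPKM in WT CD115- CDPs.

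**Figure D1:**
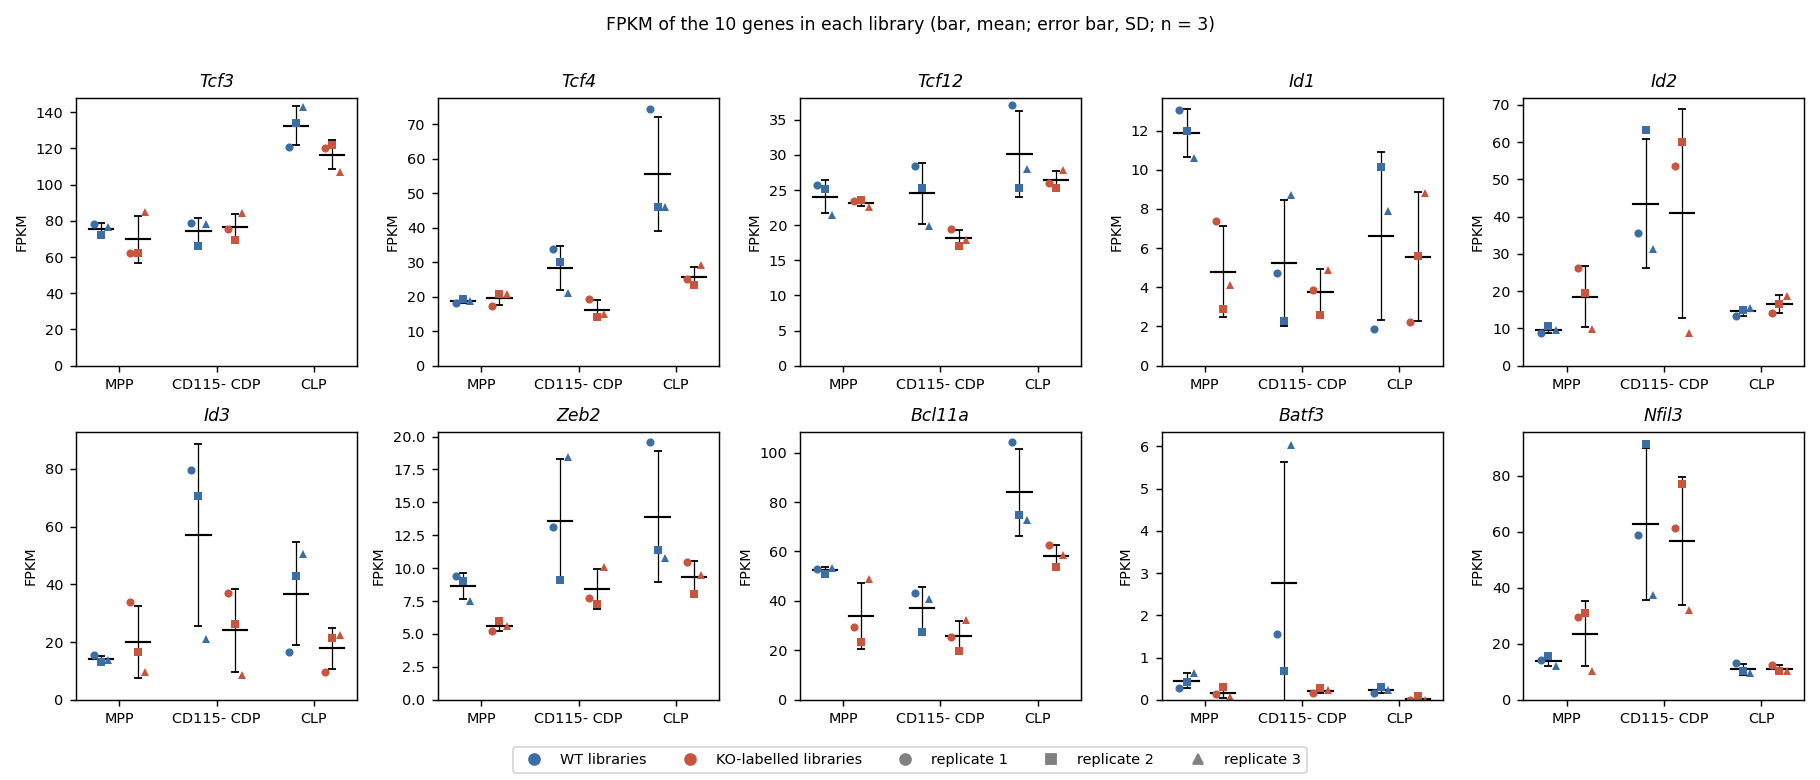
FPKM of the 10 genes (y axes, linear, from 0) in each of the 18 libraries, by population (x axis); blue points are WT and red points KO-labelled libraries, the marker shape gives the replicate number, the bar is the mean and the error bar the SD of 3 libraries. *Tcf4* is highest in WT CLPs, *Nfil3* in CD115- CDPs and *Id1* in WT MPPs.

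In WT progenitors *Tcf3* and *Tcf4* were highest in CLPs, and *Id2*, *Nfil3* and *Batf3* in CD115- CDPs. *Tcf3*, the most abundant of the E protein genes in all 18 libraries, measured 121, 134 and 143 FPKM in WT CLPs, 78.4, 72.1 and 76.6 in WT MPPs, and 78.7, 66.3 and 78.1 in WT CD115- CDPs. Every WT CLP library lay above the other 6 WT libraries, while MPPs and CD115- CDPs overlapped. On the log2(FPKM + 1) scale CLPs were 0.80 ± 0.12 (SE) above MPPs and CD115- CDPs 0.83 ± 0.12 below CLPs (limma adjusted p = 0.00021 and 0.000742), differences that pass the p but not the fold threshold.

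*Tcf4*, the E protein of pDCs, had the largest ratio between its highest and lowest WT population means of the 3 E protein genes. It measured 74.6, 46.1 and 46.0 FPKM in CLPs, 33.7, 30.02 and 21.2 in CD115- CDPs, and 18.3, 19.4 and 18.9 in MPPs. The 3 populations did not overlap. The difference between CLPs and MPPs was 1.47 ± 0.19 on the log2 scale (limma adjusted p = 4.91e-05), the only member called in that comparison, where 8.70% of all tested genes were called in either direction. CD115- CDPs lay 0.94 ± 0.19 below CLPs (limma adjusted p = 0.00743; called at -1.06 after rescaling to TPM, and at -1.07, -1.05 and -1.05 without WT CD115- CDP library 1, WT CLP library 2 or WT CLP library 3), and 0.54 ± 0.19 above MPPs (limma adjusted p = 0.0619 and, with the replicate number as a block, 0.0459). *Tcf12* had no such gradient, at 25.7, 25.1 and 21.4 FPKM in MPPs, 28.5, 25.2 and 19.9 in CD115- CDPs and 37.1, 25.3 and 28.0 in CLPs; the populations overlapped.

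Among the ID genes, *Id2* and *Id3* had their highest WT means in CD115- CDPs and *Id1* in MPPs. *Id2*, the ID gene of the cDC lineage, measured 35.7, 63.2 and 31.3 FPKM in WT CD115- CDPs against 8.89, 10.6 and 9.58 in MPPs and 13.3, 14.9 and 15.6 in CLPs. The lowest CD115- CDP library held more than the highest library of either other population. The difference was 1.99 ± 0.52 from MPPs (limma adjusted p = 0.0141, and 0.0659 without WT CD115- CDP library 2) and 1.45 ± 0.52 from CLPs (limma adjusted p = 0.088, and 0.00542 without the CD115- CDP library labelled KO 3, which enters only the estimate of the spread).

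*Id3* measured 79.7, 70.7 and 21.1 FPKM in WT CD115- CDPs, 16.6, 43.0 and 50.6 in CLPs and 15.5, 13.1 and 13.6 in MPPs. Library 3 of CD115- CDPs and library 1 of CLPs lay far below the others of their group, and the populations overlapped. CD115- CDPs exceeded MPPs by 1.74 ± 0.60, which missed the threshold without the block (limma adjusted p = 0.0522) and passed with it (0.0419) and with quantile normalization (1.84, 0.045); it also passed without WT CD115- CDP library 3 (2.34, limma adjusted p = 0.00923) and without any 1 of 5 other libraries (0.0281 to 0.0488). *Id1*, an early target of BMP signalling, ran from 10.6 to 13.1 FPKM in WT MPPs, from 2.28 to 8.69 in CD115- CDPs and from 1.87 to 10.2 in CLPs, and no difference between populations passed; without WT CD115- CDP library 3 it was called lower in CD115- CDPs than in MPPs (-1.56, limma adjusted p = 0.0371).

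Of the DC regulators, *Nfil3*, a repressor that acts at the start of the cDC1 circuit, had the largest excess in CD115- CDPs on the log2(FPKM + 1) scale. It measured 58.8, 91.5 and 37.6 FPKM there, 14.2, 15.8 and 11.9 in WT MPPs and 12.95, 10.1 and 9.43 in WT CLPs. The CD115- CDP libraries did not overlap those of the other populations, and the excess was 2.01 ± 0.39 over MPPs and 2.35 ± 0.39 over CLPs (limma adjusted p = 0.00191 and 0.00163). *Batf3*, which sustains *Irf8* in committed cDC1s, measured 1.55, 0.68 and 6.03 FPKM in WT CD115- CDPs, 0.29, 0.43 and 0.64 in MPPs and 0.16, 0.30 and 0.22 in CLPs. It was called higher in CD115- CDPs than in MPPs and CLPs (1.11 ± 0.34 and 1.34 ± 0.34, limma adjusted p = 0.0293 and 0.0202). Library 3, which held the most *Batf3*, also had 1192 summed FPKM of 6 monocyte markers against 225 and 147 in libraries 1 and 2; without it *Batf3* was below the expression filter of these comparisons. The call was also lost without any 1 WT library of MPPs (limma adjusted p = 0.0569 to 0.0969) or of CLPs (0.0555 to 0.0595).

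*Bcl11a* had the opposite order to *Nfil3*. It measured 104, 74.9 and 72.8 FPKM in WT CLPs, 52.9, 50.7 and 53.4 in MPPs and 43.0, 27.3 and 40.6 in CD115- CDPs. None of the 3 groups overlapped, and CD115- CDPs lay 1.17 ± 0.24 below CLPs (limma adjusted p = 0.0074; -0.97 without WT CD115- CDP library 2). *Zeb2*, a zinc-finger repressor needed for pDCs, was 7.50 to 9.40 FPKM in MPPs, 9.07 to 18.5 in CD115- CDPs and 10.7 to 19.6 in CLPs, and no difference between populations passed. In all, 3 members were called between WT CD115- CDPs and MPPs, where 6.79% of all tested genes were, and 3 between CD115- CDPs and CLPs (2.94%). Each library was scaled on its own and the CLP table lists fewer genes, so that population and table cannot be told apart in these comparisons.

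In CLPs the KO-labelled libraries held less *Tcf4*, and *Tcf4*, *Tcf3*, *Id3*, *Bcl11a*, *Zeb2* and *Batf3* had lower values in the KO-labelled library of every number. The share of all tested genes lower in every number was not counted, so this is a description only. *Tcf3* hardly differed in number 1 (120.4 against 121 FPKM in WT), and *Batf3* was below the filter. *Tcf4* measured 25.1, 23.4 and 29.1 FPKM in the KO-labelled libraries against 74.6, 46.1 and 46.0 in WT. The groups did not overlap, and the KO-labelled mean was 25.8 ± 2.91 (SD, n = 3) against 55.6 ± 16.5 FPKM. The log2 fold change of -1.04 ± 0.19 (limma adjusted p = 0.00811) made *Tcf4* the only 1 of 9 tested members that fell past both thresholds, where 2.84% of all tested genes fell and 3.52% were called in either direction. The fold change was -0.81 without WT library 1 and -0.98 without KO-labelled library 2 (limma adjusted p = 0.00348 and 0.0278), past the p but not the fold threshold, and without WT library 1 *Id3* was called (-1.42, limma adjusted p = 0.0223). In bulk RNA, fewer cells of a kind and less RNA per cell cannot be told apart.

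*Id3* in CLPs measured 9.64, 21.5 and 22.4 FPKM in the KO-labelled libraries against 16.6, 43.0 and 50.6 in WT. The groups overlapped only through WT library 1, yet each KO-labelled library held 0.58, 0.50 and 0.44 times the WT library of the same number. Libraries of the same number deviated together in CLPs and CD115- CDPs, although some libraries of different numbers did so as much. With the number as a block the fold change of -0.94 had an SE of 0.11 in place of 0.43. Its limma adjusted p was 0.000914 in place of 0.185. The change remained just short of the fold threshold.

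*Bcl11a* measured 62.5, 53.6 and 58.7 FPKM in KO-labelled CLPs, below all of 104, 74.9 and 72.8 in WT. Its log2 fold change was -0.50 ± 0.15 (limma adjusted p = 0.0557, and 0.0151 with the block). *Zeb2* measured 10.5, 8.03 and 9.45 FPKM against 19.6, 11.4 and 10.7, also without overlap, at -0.49 ± 0.21 (0.17, and 0.043 with the block). *Zeb2* overlaps the antisense gene *Zeb2os*, whose reads cannot be told apart in a library that does not mark strand; *Zeb2os* was 2.62 to 3.81 FPKM in KO-labelled and 7.41 to 10.2 in WT CLPs.

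No difference of the remaining members passed in CLPs. *Tcf3* measured 120.4, 122 and 107 FPKM in the KO-labelled libraries (log2 fold change -0.19, 95% interval -0.43 to 0.05), and *Tcf12* 26.0, 25.3 and 27.8 (-0.17, -0.49 to 0.16). *Id2* measured 14.2, 16.6 and 18.8 FPKM (0.16, -0.13 to 0.46) and *Nfil3* 12.5, 10.3 and 10.4 (0.04, -0.29 to 0.36), while *Id1* varied too widely to bound (-1.38 to 1.09). *Batf3* was below the filter, listed at 0 in libraries 1 and 3 and at 0.08 FPKM in library 2 labelled KO, where 1 read on its transcript is worth about 0.0621 to 0.0693 FPKM. Without the block, 3 of the 9 tested members had no overlap and lower KO-labelled values, where 18.6% of all tested genes did; with it, 4 passed the adjusted p, all lower, where 12.5% of tested genes did.

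**Figure D2:**
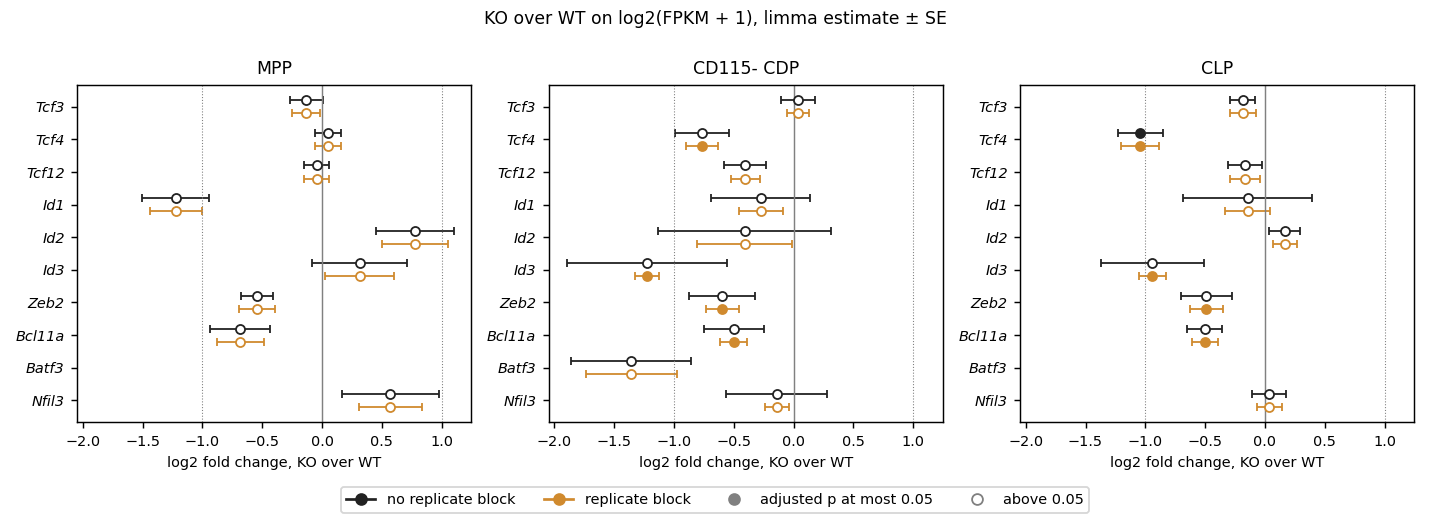
Log2 fold change of KO-labelled over WT libraries on log2(FPKM + 1) with its SE (x axis) for each gene (y axis) in the 3 populations, by limma without (black) and with (orange) the replicate number as a block; filled points have an adjusted p of at most 0.05 and dotted lines mark a change of 1. Without the block the only filled point is *Tcf4* in CLPs, and with it *Tcf4*, *Id3*, *Zeb2* and *Bcl11a* are filled in CD115- CDPs and CLPs; *Batf3* was tested in CD115- CDPs alone.

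In CD115- CDPs *Tcf4*, *Tcf12*, *Id3*, *Zeb2*, *Bcl11a* and *Batf3* had lower values in the KO-labelled library of every number. The share of all tested genes that did so was not counted here either. *Id3* measured 37.1, 26.4 and 8.63 FPKM against 79.7, 70.7 and 21.1 in WT, or 0.46, 0.37 and 0.41 times the WT library of the same number. The groups overlapped only through WT library 3. Its log2 fold change of -1.22 had an SE of 0.67 without the block (limma adjusted p = 0.574) and 0.10 with it (0.00473), which made it the 1 member of 10 called with the block. Without the block none was called, with 0.106% of all tested genes called in either direction and 1.83% with the block; at an unadjusted p of 0.05 without the block, *Tcf4* (0.0125) and *Batf3* (0.0323) were lower, 2 of 10 members where 5.99% of all tested genes were.

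*Tcf4* measured 19.4, 13.98 and 15.0 FPKM in KO-labelled CD115- CDPs, all below 33.7, 30.02 and 21.2 in WT. The log2 fold change was -0.76 ± 0.22 (limma adjusted p = 0.367, and 0.0283 with the block). *Tcf12* did not overlap either, at 19.4, 17.0 and 17.9 FPKM against 28.5, 25.2 and 19.9 (-0.40, limma adjusted p = 0.487, and 0.0831 with the block). *Tcf3* had 75.3, 69.6 and 84.3 FPKM against 78.7, 66.3 and 78.1, an estimate of 0.04 that turned to -0.09 when values were rescaled to TPM.

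*Zeb2* measured 7.72, 7.31 and 10.1 FPKM in KO-labelled CD115- CDPs against 13.2, 9.07 and 18.5 in WT, and *Bcl11a* 25.6, 19.8 and 32.2 against 43.0, 27.3 and 40.6. Both groups overlapped, and both genes were lower in 3 of 3 numbers, by -0.59 and -0.50 on the log2 scale (limma adjusted p = 0.518 and 0.539, and 0.0499 and 0.0471 with the block). *Zeb2os* stood at 2.63 to 10.3 against 4.13 to 14.1 FPKM. With the block 4 of the 10 members passed the adjusted p and were lower, where 5.56% of tested genes were.

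*Batf3* measured 0.15, 0.28 and 0.22 FPKM in KO-labelled CD115- CDPs, a few reads, against 1.55, 0.68 and 6.03 in WT. The groups did not overlap, and the fold change was -1.36 ± 0.50 (limma adjusted p = 0.434, and 0.0728 with the block); it was -0.77 without WT library 3. The 6 monocyte markers summed to 44.0, 32.9 and 187 FPKM in the KO-labelled libraries against 225, 147 and 1192 in WT, with none at 0 in all libraries, and their part in the lower *Batf3* was not tested. Of the 10 members, 3 had no overlap and lower KO-labelled values, where 10.6% of tested genes did.

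For *Id2*, *Nfil3* and *Id1* in CD115- CDPs the estimates over all libraries were below 0, but each turned sign with a library left out. *Id3*, given above, was lower in every number. *Id2* measured 53.7, 60.1 and 8.72 FPKM in the KO-labelled libraries against 35.7, 63.2 and 31.3 in WT. Library 3 labelled KO decided the sign, as the fold change was -0.41 with it and 0.45 without it. *Nfil3* measured 61.3, 77.0 and 32.0 FPKM against 58.8, 91.5 and 37.6, and *Id1* 3.87, 2.60 and 4.87 against 4.74, 2.28 and 8.69; in both the groups overlapped and the intervals of the fold change (-1.15 to 0.87 and -1.27 to 0.72) spanned 0.

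**Figure D3:**
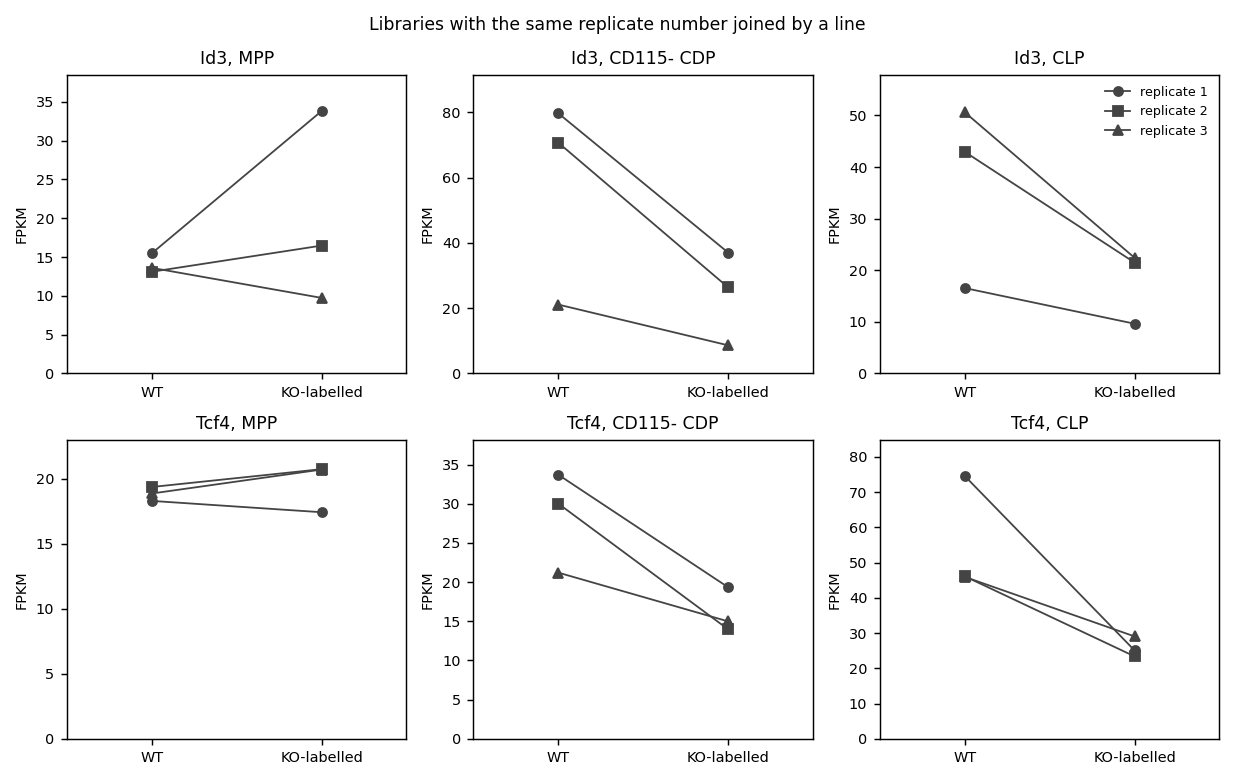
FPKM (y axes, from 0) of *Id3* (top) and *Tcf4* (bottom) in WT and KO-labelled libraries, with libraries of the same replicate number joined by a line, for MPPs, CD115- CDPs and CLPs. All 6 lines of each gene fall in CD115- CDPs and CLPs, whereas in MPPs the *Tcf4* values stay between 17.4 and 20.7 FPKM and the *Id3* lines diverge.

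In MPPs no member was called over all 6 libraries, and the 10 genes split between lower *Id1*, *Zeb2* and *Bcl11a* and higher *Id2* and *Nfil3* in 2 of the 3 KO-labelled libraries. *Id1* measured 7.36, 2.87 and 4.13 FPKM against 13.1, 11.97 and 10.6 in WT. The groups did not overlap, and the fold change was -1.22 ± 0.28 (limma adjusted p = 0.0658); without library 1 labelled KO it was called lower (-1.53, limma adjusted p = 0.0277). At an unadjusted p of 0.05, 3 of 9 tested members were lower, *Id1* (0.00358), *Zeb2* (0.00492) and *Bcl11a* (0.0302), where 19.8% of all tested genes were. At the adjusted p and fold thresholds 1.48% of all tested genes were called in either direction.

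*Zeb2* measured 5.20, 5.99 and 5.61 FPKM in the KO-labelled MPP libraries, all below 9.40, 9.04 and 7.50 in WT (-0.54 ± 0.13, limma adjusted p = 0.0773), with *Zeb2os* at 1.45 to 3.54 against 3.45 to 4.42. *Bcl11a* measured 29.5, 23.2 and 48.7 FPKM against 52.9, 50.7 and 53.4 (-0.68 ± 0.25, limma adjusted p = 0.166). All KO-labelled values of both genes lay below WT, and that of *Bcl11a* in library 3 only narrowly. The 3 members without overlap (*Id1*, *Zeb2*, *Bcl11a*) compare with 23.3% of all tested genes with lower KO-labelled values and no overlap.

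*Id2* measured 26.3, 19.6 and 9.78 FPKM in KO-labelled MPPs against 8.89, 10.6 and 9.58 in WT, and *Nfil3* 29.6, 30.8 and 10.1 against 14.2, 15.8 and 11.9. Libraries 1 and 2 labelled KO exceeded every WT library for both genes, and library 3 lay within the WT range for *Id2* and below it for *Nfil3*. The fold changes were 0.77 ± 0.33 and 0.57 ± 0.40 (limma adjusted p = 0.207 and 0.384). Without library 3 labelled KO they were 1.15 and 1.07 (0.00169 and 0.00147) and both genes were called higher, *Id1* was called lower (-1.17, 0.0194), and *Bcl11a* (-0.97, 0.00145), *Zeb2* (-0.55, 0.0105) and *Tcf3* (-0.28, 0.0131) passed the p but not the fold threshold. That fit called 7.40% of all tested genes at both thresholds, and at the adjusted p alone 38.8% were lower, against 4 of 9 members; it leaves the 2 libraries in which *Trim33* was not below WT.

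*Id3* measured 33.8, 16.5 and 9.74 FPKM in KO-labelled MPPs against 15.5, 13.1 and 13.6 in WT, so that libraries 1 and 2 lay above and library 3 below every WT library. *Tcf4* measured 17.4, 20.7 and 20.7 FPKM against 18.3, 19.4 and 18.9, with a fold change of 0.05 and a 95% interval of -0.21 to 0.31. *Tcf3* (62.4, 62.2 and 84.7 FPKM against 78.4, 72.1 and 76.6) and *Tcf12* (23.4, 23.6 and 22.6 against 25.7, 25.1 and 21.4) overlapped with WT, and the sign of *Tcf12* turned with median ratio scaling. *Batf3* was below the filter at 0.07 to 0.30 FPKM against 0.29 to 0.64. Markers of other cell types moved with these libraries. Of 8 erythroid markers 7 were called lower, and their sum was 32.1 to 57.8 FPKM in KO-labelled against 360.4 to 389.7 in WT MPPs. Of 5 basophil and mast cell markers 4 were called lower (63.0 to 102 against 191 to 215), of 5 tested monocyte markers 3 (47.6 to 82.8 against 113 to 133), of 9 neutrophil markers 3 (1565 to 2584 against 3481 to 3606) and of 3 tested megakaryocyte markers 1 (8.32 to 10.8 against 19.7 to 22.5). None was at 0 in all libraries, and their part in these differences was not tested.

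The KO-to-WT difference of *Tcf4* and *Id3* was then compared between the populations with an interaction test over the 18 libraries. For *Tcf4* the difference was 1.09 ± 0.27 lower on the log2 scale in CLPs and 0.82 ± 0.27 lower in CD115- CDPs than in MPPs (F test of limma, adjusted p = 0.0905 without and 0.0289 with an intercept for each number in each population). For *Id3* it was 1.26 and 1.54 lower (0.517 without and 0.0248 with). Without the intercepts *Tcf4* passed when WT CD115- CDP library 3 was left out (0.0272). Of all tested genes 2.45% passed without and 8.67% with these intercepts. No other member passed in either fit, with *Id1* nearest in the second (0.088). *Zeb2* (0.975 and 0.912) and *Bcl11a* (0.908 and 0.739) were lower in all 9 numbered pairs. The share of all tested genes lower in all 9 was not counted, so that is a description only. For *Zeb2* and *Bcl11a* the differences between populations were at most 0.18, with an SE of 0.33 for *Zeb2* and 0.34 for *Bcl11a* without the intercepts. Such SEs leave room for larger differences.

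**Figure D4:**
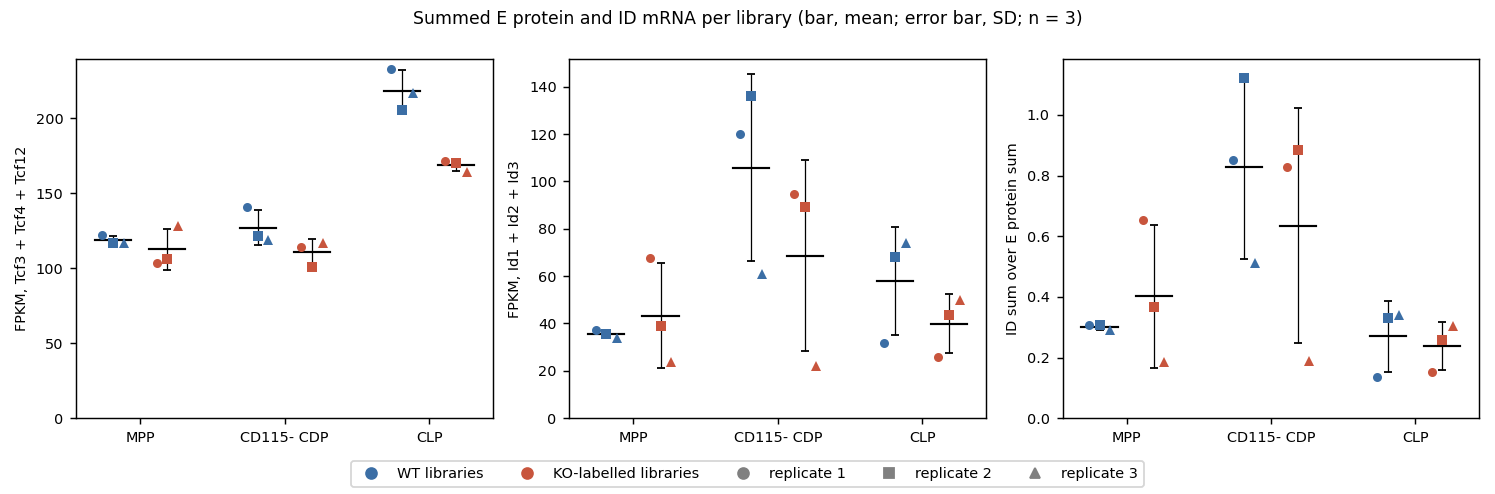
Summed FPKM of *Tcf3*, *Tcf4* and *Tcf12* (left), of *Id1*, *Id2* and *Id3* (middle), and the ratio of the second sum to the first (right) in each library by population, with blue WT and red KO-labelled points, the mean as a bar and the SD as an error bar (n = 3). The E protein sum is highest in WT CLPs and the ratio highest in CD115- CDPs, where the libraries also spread most.

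The summed mRNA of the 3 ID genes was set against that of the 3 E protein genes as a description of their balance, with no test. In WT MPPs the ratio was 0.31, 0.31 and 0.29, and in the KO-labelled libraries 0.65, 0.37 and 0.18, on both sides of WT. In CD115- CDPs it was 0.85, 1.12 and 0.51 in WT and 0.83, 0.89 and 0.19 in KO-labelled libraries, and in CLPs 0.14, 0.33 and 0.34 against 0.15, 0.26 and 0.30. The WT and KO-labelled ratios thus overlapped in each population.

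In CLPs the E protein sum was 205.6 to 232.7 FPKM in WT and 164 to 171 in KO-labelled libraries, and the share of *Tcf4* in it was 32.1%, 22.4% and 21.2% in WT against 14.6%, 13.7% and 17.7%. The ratio of *Tcf4* to *Id2* was 5.63, 3.10 and 2.95 in WT CLPs and 1.77, 1.41 and 1.55 in the KO-labelled ones, without overlap. In MPPs that ratio was 2.06, 1.83 and 1.97 in WT and 0.66, 1.06 and 2.12 in KO-labelled libraries, of which library 3 lay above WT. In CD115- CDPs it was 0.95, 0.48 and 0.68 against 0.36, 0.23 and 1.72, which overlapped.

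Over the 18 libraries the member pairs that rose and fell together most on Pearson's r were *Tcf4* with *Tcf12* (0.83), *Id2* with *Nfil3* (0.82) and *Tcf3* with *Bcl11a* (0.81), and the most opposed was *Bcl11a* with *Nfil3* (-0.81). These values are descriptions over libraries that share populations, genotypes and replicate numbers. Among 8524 other genes averaging at least 5 FPKM, the pattern closest to *Tcf4* was that of *Fyn* (0.95), followed by *Npc1* and *Lrch1*, and closest to *Id3* was *Tagap* (0.89). Those closest to *Id1* were *Zfp36* (0.85), *Jun* (0.84) and *Dusp1* (0.83), immediate early genes of the response to stimulation. *Bcl11a* ran closest to *Pml* (0.98), *Tcf3* to *Ptp4a3* (0.97), *Nfil3* to *Sub1* (0.95), *Zeb2* to *L3mbtl3* (0.93), *Id2* to *Dnajb6* (0.92), *Tcf12* to *Ankib1* (0.92), and *Batf3* to *S100a4* (0.92).

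The genes that these regulators are known to serve were read from lists chosen with earlier results known. Of 12 pDC genes, 11 fell in CLPs and none rose, with a median log2 fold change of -2.23 against 0.01 over all tested genes. *Spib*, an ETS factor of pDCs, went from 105 ± 13.1 to 1.88 ± 0.34 FPKM (-5.20), *Siglech*, a pDC surface receptor, from 169 to 8.67 (-4.11), *Pacsin1* from 22.7 to 0.96 (-3.57) and *Irf8* from 1074 to 162 (-2.72). In CD115- CDPs none of the 12 passed without the block and 8 fell with it, and in MPPs none passed. Of all tested genes 2.84% were called lower in CLPs and 1.32% in MPPs. In CD115- CDPs it was 0.0654% without the block and 1.46% with it. The study itself chose *Irf8*, *Spib*, *Runx2*, *Siglech* and *Bst2* on these samples. It also named *Cd8a*, *Cadm1*, *Tlr3*, *Itgax* and *Ly6c2*, members of the lists below, from them. The direction of all these genes is thus not independent evidence.

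Of 10 cDC1 genes, 4 fell in CLPs (*Irf8*, *Clec9a*, *Cadm1* and *Cd8a*), 1 in MPPs (*Naaa*) and none in CD115- CDPs, or 2 there with the block (*Irf8* and *Clec9a*); the median of the 6 tested in CLPs was -1.32. Of 10 genes of cDC2s and monocytes, 3 fell in CLPs (*Ly6c2*, *Csf1r* and *Sirpa*), 2 in MPPs (*Csf1r* and *Ccr2*) and none in CD115- CDPs, or 4 with the block. In CLPs the 6 monocyte markers summed to 10.3 to 21.7 FPKM in KO-labelled against 170 to 202 in WT libraries, with 2 of 5 tested called lower, and 6 markers of mature DCs to 121 to 191 against 341 to 385, with 2 of 5 called lower (*Itgax* and *Siglech*). The 8 erythroid markers summed to 5.62 to 9.86 against 34.4 to 56.6 FPKM, with 3 of 5 tested called lower. The 9 neutrophil markers summed to 241 to 414 against 424 to 993. Without the block none of the 9 was called, and with it 6 were called lower, where 3.11% of all tested genes were. Of 5 tested markers of T cells, NK cells and innate lymphoid cells 1 rose (*Nkg7*), where 0.673% of all tested genes were called higher. None of these markers was at 0 in all libraries, and their part in the fall of DC genes and *Tcf4* was not tested.

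Of 11 genes of the early lymphoid path downstream of E2A, none fell in CLPs and 1 rose, *Rag1*, which encodes part of the V(D)J recombinase, from 16.2 ± 0.88 to 53.9 ± 5.23 FPKM (1.67), and *Dntt*, a polymerase of V(D)J joining, was at 1045 against 2086 FPKM (0.99, limma adjusted p = 0.00178), just under the fold threshold; the median of the list was 0.07. In MPPs 1 fell (*Igll1*, -1.75), and in CD115- CDPs 1 rose with the block only (*Dntt*, 1.17, limma adjusted p = 0.0199). Calls in the higher direction made up 0.673% of all tested genes in CLPs and 0.376% in CD115- CDPs with the block. Of 10 partner and corepressor genes of E proteins 7 were tested, and 1 fell, *Tal1* in MPPs (from 16.5 to 6.58 FPKM, -1.25), which encodes a helix-loop-helix protein that pairs with E proteins.

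The targets of signals known to act on Id genes were mostly uncalled. Of 8 genes induced by SMAD signalling 1 fell, *Pmepa1* in CLPs (-1.36), and none passed in MPPs or CD115- CDPs. Of 10 immediate early genes 4 fell in MPPs, with a median over the list of -1.04 against -0.11 over all tested genes: *Egr1* from 807 to 98.1 FPKM (-3.02), *Dusp1* from 878 to 200.3 (-2.38), *Jun* from 1621 to 463 (-1.85) and *Egr2* from 4.20 to 1.40 (-1.14). None of the 10 was called in CD115- CDPs or CLPs, other than *Egr1* in CLPs with the block. The 10 summed to 3794 to 4414 FPKM in KO-labelled against 8995 to 10029 in WT MPPs.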

How the data were processed

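RNA-seq of sorted mouse MPPs, CD115- CDPs and CLPs was used, with 3 WT and 3 KO-labelled libraries each. Single-end reads of 50 bases were filtered and aligned by the authors (Bowtie2 2.2.5; HISAT2 2.0.4 is also named), genes were quantified with RSEM 1.2.12, and the deposited values are FPKM rounded to 2 decimals. Read counts were not used here, so the authors' count tests were not repeated; the values gave no whole reads gene by gene, and the depth of 19.2 to 21.4 M reads was estimated from the steps between low values of genes with 1 transcript.

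Genes averaging 0.5 FPKM or more in the libraries compared were fitted with limma 3.58.1 (R 4.3.3; eBayes with an intensity trend) to log2(FPKM + 1), within a population for KO against WT and over all 18 libraries between populations and for the interaction, with Benjamini-Hochberg adjustment over all tested genes. The fits were tested on simulated data. A second fit had the replicate number in the titles as a block. Deviations from the group means of libraries that share a number correlated above 0.1 for every pair in CD115- CDPs (0.44 to 0.79), CLPs (0.14 to 0.41) and WT CD115- CDPs with WT MPPs (0.15 to 0.38), but not in MPPs (lowest 0.02). Libraries of different numbers reached 0.67 in CD115- CDPs and 0.23 in CLPs, above the lowest same-number values. The numbers thus set pairs apart only in part. Alternative settings were no filter, a filter at 5 FPKM, a pseudocount of 0.1, TPM, median ratio and quantile scaling, no trend, the block, no minimum fold change, and leaving out each library; leaving out libraries for the ID to E protein ratio was added after seeing the data.

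The members and gene lists were chosen with earlier results of these data known. The text names all 10 members, *Trim33*, up to 4 called genes of each list with the largest fold change, called genes where a list had 5 or fewer, and the genes closest in pattern to each member; *Dntt* and the sort markers were named after their values were seen. Positions and the 250 bases before starts are from RefSeq on GRCm38.p6, exons from GENCODE M21; *Tcf4* sequence was not used here. Summaries used pandas 2.3.3 and numpy 2.4.6.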

Additional observations from a re-analysis of the deposited data

Results flagged for a closer look

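The KO-to-WT difference of *Id3* and of *Tcf4* differed between the 3 populations when each replicate number of each population had its own intercept, by the F test of limma for the interaction of population and genotype (adjusted p = 0.0248 for *Id3* and 0.0289 for *Tcf4*). *Id3* was lower in the KO-labelled library of all 3 numbers in CD115- CDPs and CLPs, and higher in 2 of 3 in MPPs. *Tcf4* was lower in all 3 numbers in CD115- CDPs and CLPs, and in 1 of 3 in MPPs. Over all 18 libraries neither passed without these intercepts (0.517 and 0.0905), although *Tcf4* did when WT CD115- CDP library 3 was left out (0.0272). Same-numbered libraries did not all deviate together in MPPs, where the lowest correlation was 0.02. In CD115- CDPs and CLPs they did (lowest 0.44 and 0.14), but libraries of different numbers reached 0.67 and 0.23. The numbers therefore pair libraries only in part, and the results that need these intercepts rest on that pairing.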

How the results depend on the processing

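The count of called members moved by more than 1.5 times with the replicate block in CD115- CDPs (1 in place of 0) and in the interaction (2 in place of 0), with quantile normalization in CLPs (0 in place of 1, as *Tcf4* came to -0.996), and with no minimum fold change between WT CLPs and MPPs (2 in place of 1) and between WT CD115- CDPs and CLPs (5 in place of 3). With each library left out in turn the count ran from 0 to 3 in MPPs, from 0 to 1 in CLPs and in the interaction, and stayed 0 in CD115- CDPs; the *Trim33* fold change in MPPs ran from -0.45 to 0.12.

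Signs turned for *Tcf12* in MPPs (0.0702 with median ratio scaling), *Tcf3* in CD115- CDPs (-0.0853 with TPM), *Tcf3* between WT CD115- CDPs and MPPs (0.0922 with median ratio scaling), and *Zeb2* between WT CD115- CDPs and CLPs (0.0489 with median ratio scaling and 0.0527 with quantile normalization), all uncalled. Leaving out a library turned the sign of other uncalled values, with ranges of -0.13 to 0.00132 for *Tcf12* and -0.13 to 0.71 for *Id3* in MPPs; -0.0411 to 0.10 for *Tcf3*, -0.67 to 0.11 for *Id1*, -0.88 to 0.45 for *Id2* and -0.45 to 0.22 for *Nfil3* in CD115- CDPs; -0.74 to 0.29 for *Id1* and -0.0481 to 0.16 for *Nfil3* in CLPs; -0.0717 to 0.0506 for *Tcf3* and -0.0946 to 0.15 for *Tcf12* between WT CD115- CDPs and MPPs; and -0.81 to 0.18 for *Id1* and -0.27 to 0.22 for *Zeb2* between WT CD115- CDPs and CLPs. The cause was not tested.

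The median of all genes between KO-labelled and WT MPPs was -0.11, and -0.01 with median ratio or quantile scaling; in CD115- CDPs it was -0.07, and -0.19 with TPM. Over all genes the block raised the calls in CD115- CDPs from 13 to 224, and leaving out KO-labelled library 3 raised those in MPPs from 183 to 916. The block changed no call of a member in MPPs, and none between WT populations other than *Id3* between CD115- CDPs and MPPs. The ID to E protein ratio has no test. Read counts would be needed to set a counting error on *Batf3* and *Id1*, the lowest members.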

Other observations

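The SMAD target list, which held no called gene in MPPs or CD115- CDPs, varied between libraries with the replicate number in CD115- CDPs. Its 8 genes summed to 219.6, 223.5 and 46.9 FPKM in the 3 WT libraries and to 217, 219.7 and 59.2 in the KO-labelled ones. In MPPs the sum was 102, 106 and 78.4 FPKM in WT and 202, 221 and 66.8 in the libraries labelled KO. *Id2*, *Id3* and *Nfil3* were also higher in KO-labelled numbers 1 and 2 than in number 3, where *Id2* lay within the WT range. *Id1* did not follow the sum, at 7.36, 2.87 and 4.13 FPKM, below the WT range of 10.6 to 13.1 in every number. A link between these genes and the list was not tested.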
